A study of Mus musculus with 8 samples.

Results

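Neurotransmitter receptors were examined in the visual cortex of young mice that had lost 1 eye. The set was made of every gene whose probe sets carried a single symbol beginning as those of the ionotropic and metabotropic glutamate receptors, the GABA-A and GABA-B receptors, the glycine receptors, and the acetylcholine, serotonin and dopamine receptors do. Of 8251 genes with such a probe set, 53 matched, through 66 of 12422 probe sets. Of these, 3 are the serine peptidases Htra1, Htra2 and Htra3, which share only their first letters with the serotonin receptors. The remaining 50 receptor genes were measured by 62 probe sets, and the probe set with the highest mean signal stood for each gene.

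The mice were wild-type C57Bl6 animals. Each had 1 eye removed at postnatal day 20 and was killed 4 days later, at postnatal day 24. The 4 deprived arrays hold visual cortex of the hemisphere contralateral to the removed eye, and the 4 non-deprived arrays hold that of the ipsilateral hemisphere, so both groups come from operated mice and no unoperated cortex was among the samples. The tissue was cut out of thick coronal slices and its total RNA was taken up in Trizol. The labels speak of 4 mice, and the design text of pooled samples, which leaves the number of animals behind an array unknown; p-values may therefore measure technical spread. In such whole tissue, fewer cells of a type and less RNA per cell cannot be told apart.

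Transmitter receptors fall into ion channels, which open within milliseconds of binding their ligand, and receptors coupled to G proteins, which act through second messengers. In cortex, glutamate acts on AMPA, kainate and NMDA channels and excites, while GABA acts on the chloride-conducting GABA-A channels and inhibits. Acetylcholine, serotonin and dopamine arrive mainly in axons from the basal forebrain and brainstem and adjust how cortical cells answer. In rodent visual cortex the subunits of NMDA, AMPA and GABA-A receptors are exchanged as the animal matures and sees, and the composition of these receptors is a classical readout of visual deprivation.

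All differences below are deprived minus non-deprived in log2(signal + 15.3), where signal is the authors' MAS5 intensity and 15.3 is the 10th percentile of all signals. The pseudocount makes the differences of dim genes too small. Each value is followed by its standard error (SE) where one is given, and signals are given as mean ± SD with n = 4 per group. Probe sets with a signal above about 110 were kept for the test, which took in 32 of the 50 receptor genes and left 18 out as dim. A gene was called when limma's adjusted p over all kept probe sets was under 0.05.

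No receptor gene was called higher or lower in deprived cortex. Over the whole table limma called 0 of 7453 probe sets, or 0%, and 199 (2.67%) had an unadjusted p under 0.05, of which 0 were receptor genes. The smallest adjusted p of a kept receptor was 0.995 in limma. With the replicate number as a block, 524 probe sets (7.03%) had an unadjusted p under 0.05, again with 0 receptors among them, and the smallest adjusted p of a receptor was 0.705.

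The 4 deprived arrays all lay above the 4 non-deprived arrays in 3 receptor genes, Htr2b, Chrnb1 and Drd3, all left out as dim. Over all genes this was so for 166 of 8251 (2.01%), and over the genes left out as dim for 98 of 2576 (3.8%). The 4 deprived arrays all lay below in 0 receptor genes, against 58 of all genes (0.703%). Class medians were -0.24 for the 2 muscarinic receptors, -0.04 for the 13 glutamate receptors of all kinds, 0.16 for the GABA-A receptors, and 0.41, 0.25 and 0.29 for the nicotinic, serotonin and dopamine receptors, as the plot of all 50 genes shows.

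**Figure D1:**
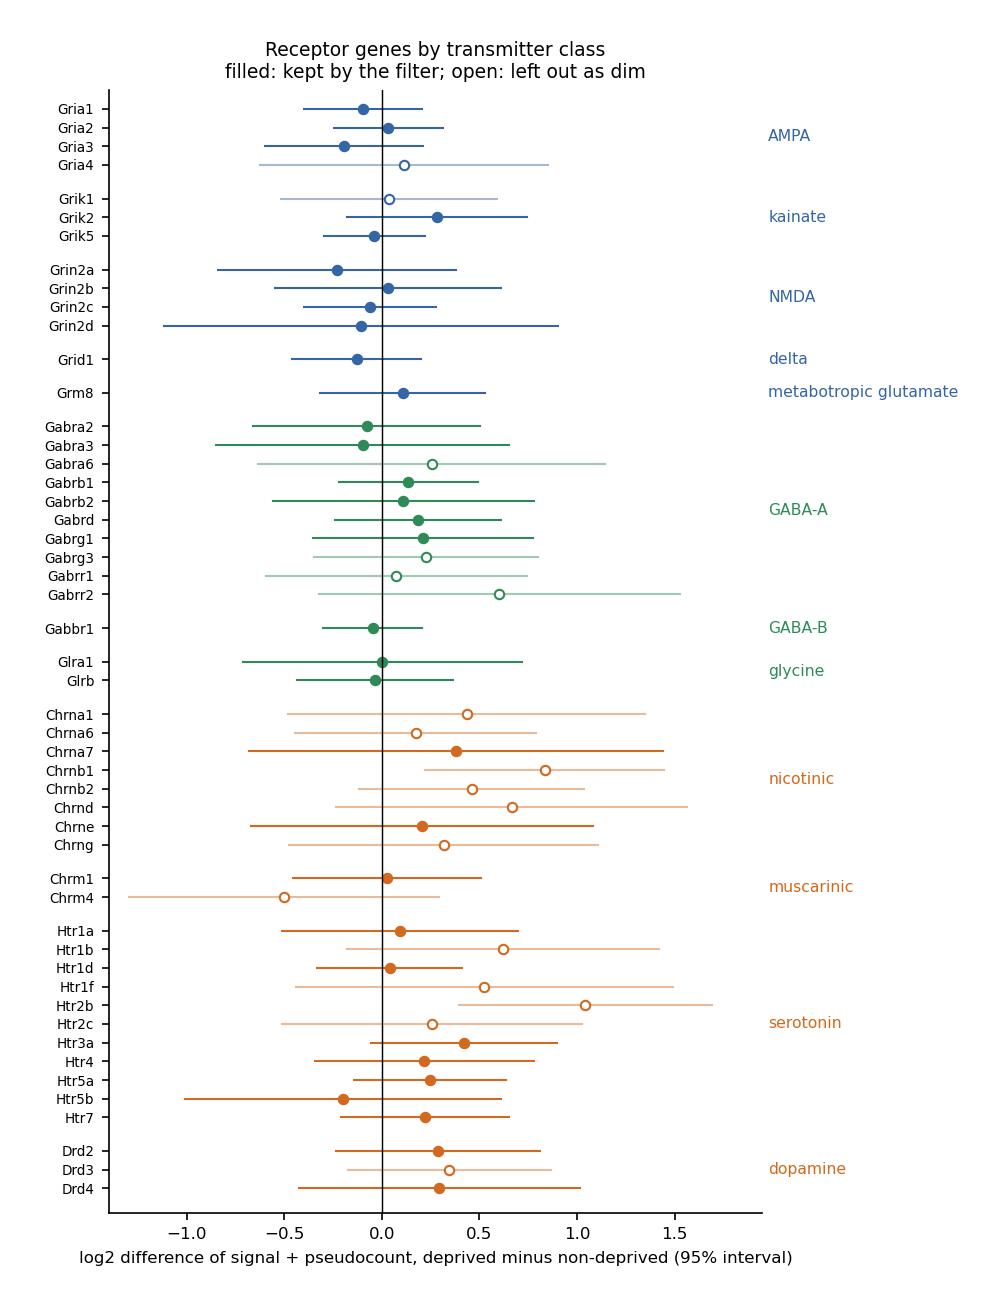
Difference of each of the 50 receptor genes, deprived minus non-deprived, in log2(signal + pseudocount), with its 95% interval and grouped by class; filled points were kept by the filter and open points left out as dim, whose intervals come from a fit with no filter. All kept genes have intervals that include 0, and all 8 nicotinic genes have points above 0.

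The AMPA receptors carry most fast excitation, and 4 of their genes were measured. Gria2, whose edited subunit keeps calcium out of the channel, had signals of 8177, 8995, 9984 and 8908 on non-deprived arrays 1 to 4 and of 10368, 9940.0, 8179 and 8512 on deprived arrays 1 to 4. The groups overlapped and their difference was 0.03 (SE 0.13). Gria1, whose subunit is inserted into synapses during potentiation, gave 1575, 1282, 1784 and 1633 against 1524, 1372, 1592 and 1352.

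The deprived values of Gria1 lay within the range of the non-deprived ones, and the difference was -0.10 (SE 0.14). A further Gria1 probe set gave -0.22 (SE 0.16). Gria3, a subunit that pairs with the Gria2 product, gave 618, 731, 552 and 632 against 485, 787, 521 and 455. Its deprived array was lower in 3 of 4 pairs of equal number and its difference was -0.19 (SE 0.18), with a 95% interval of 0.661-fold to 1.16-fold. Without deprived array 2 it was -0.36 (SE 0.16), with an unadjusted p of 0.044 in limma. With the ratio of 3′ to 5′ actin signal as a covariate it was -0.42 (SE 0.19), with an unadjusted p of 0.049 in limma. Gria3 was not called in either fit. The dim Gria4 gave 0.11 (SE 0.34), below 0 under quantile (-0.04) and loess (-0.03) normalization.

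The kainate receptors, which modulate release and excitation, were measured by Grik1, Grik2 and Grik5. Grik2, a pore-forming subunit, had signals of 289, 178, 215 and 218 in non-deprived and 223, 261, 376 and 253 in deprived cortex. The deprived array was higher in 3 of 4 pairs, the groups overlapped, and the difference was 0.28 (SE 0.21). A further Grik2 probe set gave 0.17. Grik5, an auxiliary subunit with high affinity, was among the most evenly measured receptors at 2156 ± 154 and 2097 ± 121, a difference of -0.04 (SE 0.12). Its other probe set gave 0.21 (SE 0.25). The dim Grik1 had a difference of 0.03.

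The NMDA receptors are glutamate-gated calcium channels that need depolarization to open, and their Grin2 subunits set how fast they close. Grin2a, the subunit with fast closing that gains ground as cortex matures, had signals of 126, 203, 155 and 125 on non-deprived and 109, 178, 160 and 76.7 on deprived arrays. Deprived arrays 1 and 4 lay below every non-deprived value and deprived arrays 2 and 3 within their range, and the difference was -0.23 (SE 0.28). Grin2b, the subunit with slow closing that dominates early in life, gave 400, 221, 256 and 266 against 459, 275, 285 and 182.

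The Grin2b groups overlapped and differed by 0.03 (SE 0.27); the sign turned under quantile (-0.01) and loess (-0.02) normalization. Grin2c went from 531 ± 89.9 to 505 ± 39.3, a difference of -0.06 (SE 0.16), and Grin2d from 136 ± 69.4 to 120 ± 54.7, a difference of -0.11 (SE 0.46). In all, 1 of the 4 NMDA genes lay above 0, with a median of -0.08. Grin1, the obligatory NMDA subunit, was not analysed here.

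Because Grin2a and Grin2b replace each other in NMDA receptors, their log2 values were subtracted within each array. The absolute size of this balance has no meaning, since probe sets differ in brightness, but its shift between groups can be read. Its mean ± SD was -0.84 ± 0.60 on non-deprived arrays and -1.10 ± 0.60 on deprived ones, a shift of -0.26. Over the 70 possible assignments of the arrays, the exact permutation test (two-sided) gave p = 0.514, adjusted 0.514 over 2 balances. The smallest p this design allows is 0.0286.

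Within pairs of equal number, the balance went from -1.56 to -1.93, from -0.12 to -0.58, from -0.67 to -0.77 and from -1.002 to -1.102. It was lower on the deprived side in 4 of 4 pairs, toward Grin2b, and the exact sign-flip test gave p = 0.125, the smallest its 16 sign patterns allow. Without deprived array 1 alone the shift of group means was 0.02. Without both arrays of pair 1 it was -0.22, and leaving out each pair in turn gave -0.32 to -0.19. This check was added after the values were seen. As all 4 pairs were lower, it could not turn the sign and says nothing on whether the shift is stable.

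The AMPA balance, Gria1 minus Gria2, was -2.52 ± 0.19 against -2.65 ± 0.21, a shift of -0.13 with an exact permutation p of 0.429 (adjusted 0.514). Of the 4 pairs 3 were lower, and the exact sign-flip test gave p = 0.375.

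Grid1, a delta subunit that links synapses through secreted cerebellins, gave 729, 528, 562 and 710 against 597, 530, 592 and 567. Non-deprived arrays 1 and 4 lay above all others, and the difference was -0.13 (SE 0.15). Among metabotropic receptors, which couple to G proteins, only Grm8 was measured. This presynaptic receptor dampens glutamate release. Its signal was 259 ± 27.4 against 283 ± 63.9, a difference of 0.11 (SE 0.19) with overlapping groups.

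**Figure D2:**
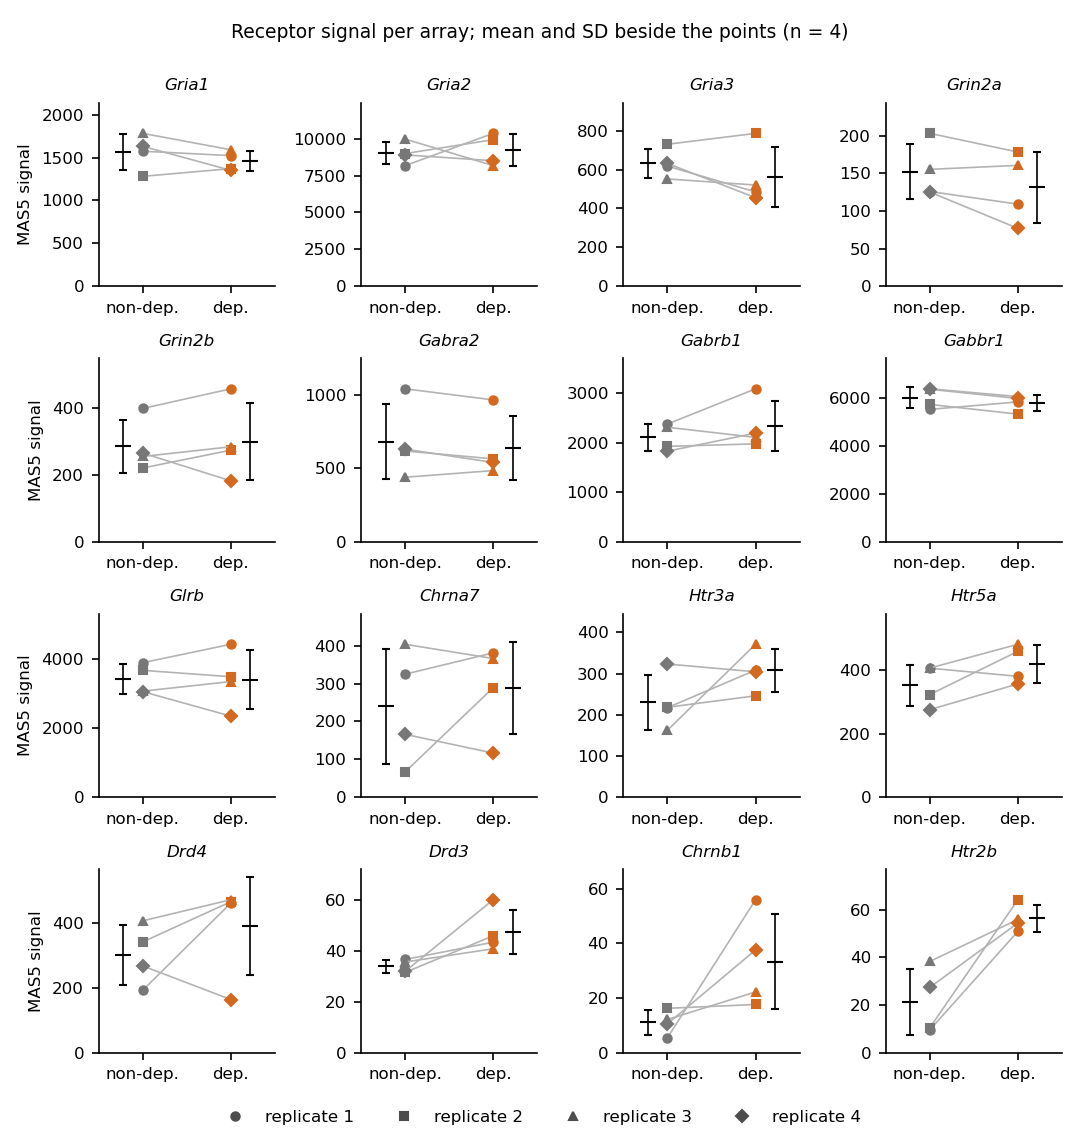
MAS5 signal (vertical axis, from 0) of 16 receptor genes on the non-deprived and deprived array of each replicate number, joined by grey lines, with mean and SD of each group beside the points. The groups overlap for all genes drawn except Drd3, Chrnb1 and Htr2b, whose signals stay under 65.

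GABA-A receptors are chloride channels made mostly of alpha, beta and gamma or delta subunits, and 10 of their genes were measured. Gabra2, an alpha subunit of the axon initial segment and other synapses, gave 1043, 619, 440 and 631 in non-deprived and 968, 565, 485 and 541 in deprived cortex. Array 1 was highest and array 3 lowest on both sides, and the difference was -0.08 (SE 0.27). Gabra3, an alpha subunit of young cortex, went from 141 ± 56.9 to 129 ± 52.2, a difference of -0.10 (SE 0.34).

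Gabrb1, a beta subunit, gave 2374, 1924, 2309 and 1826 against 3085, 1974, 2105 and 2191. Only deprived array 1 exceeded every non-deprived value, and the difference was 0.14 (SE 0.16). Gabrb2, the main beta subunit of mature cortex, gave 250.2, 148, 264 and 271 against 246, 141, 444 and 233, a difference of 0.11 (SE 0.31). Deprived array 3 alone stood high.

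Gabrd, the delta subunit of receptors outside synapses that carry tonic inhibition, gave 485, 348, 326 and 421 against 383, 619, 429 and 387. Deprived array 2 lay above every non-deprived value and the others did not, and the difference was 0.19 (SE 0.20). Gabrg1, a gamma subunit, had a difference of 0.21 (SE 0.26), from 110 ± 30.3 to 128 ± 26.7. The 4 dim GABA-A genes had differences of 0.26 for Gabra6, 0.23 for Gabrg3, 0.07 for Gabrr1 and 0.60 for Gabrr2. Of the 10 genes, 8 lay above 0, with a median of 0.16; of the 6 kept ones 4 did, with a median of 0.12.

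Gabbr1, the ligand-binding subunit of the GABA-B receptor that opens potassium channels through G proteins, was the most precisely measured receptor. Its signals were 5516, 5725, 6375 and 6358 in non-deprived and 5828, 5319, 6050 and 5972 in deprived cortex. The groups overlapped and the difference was -0.05 (SE 0.12), with a 95% interval of 0.812-fold to 1.15-fold. The glycine receptor genes gave -0.04 (SE 0.18) for Glrb, the beta subunit that binds the scaffold gephyrin, and 0.00 (SE 0.33) for the alpha subunit Glra1. Glrb signals were 3891, 3670, 3067 and 3054 against 4425, 3485, 3346 and 2343, so deprived cortex held both the highest and the lowest array.

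Nicotinic receptors are acetylcholine-gated cation channels, and all 8 measured genes lay above 0, with a median of 0.41. Only 2 of the 8 were kept by the filter. Chrna7, whose subunit forms calcium-permeable channels of its own, gave 325, 66.3, 404 and 166 in non-deprived and 381, 289, 366 and 116 in deprived cortex. The values spread almost as widely within a group as over both, and the difference was 0.38 (SE 0.49). It was -0.08 without non-deprived array 2, the lowest of the 8.

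Chrne, a subunit of the adult muscle receptor, was the other kept gene, at 276 ± 165 and 315 ± 156, a difference of 0.21 (SE 0.40). Chrnb1, the beta subunit of the muscle receptor, had signals of 5.4, 16.2, 12.1 and 10.5 in non-deprived and 56.0, 17.6, 22.2 and 37.6 in deprived cortex. These did not overlap, but the nearest values were 16.2 and 17.6 and most were close to the 10th percentile of an array. The difference was 0.83 (SE 0.28), with an unadjusted p of 0.0116 and an adjusted p of 0.974 in limma run with no filter.

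Chrnb2, the beta subunit of the most common nicotinic receptor of brain, gave 41.3, 33.1, 42.6 and 41.6 against 41.8, 60.7, 83.6 and 59.8. It was higher on the deprived side in 4 of 4 pairs, in pair 1 by almost nothing, and the difference was 0.46 (SE 0.26). The other dim nicotinic genes had differences of 0.43 for Chrna1, 0.17 for Chrna6, 0.67 for Chrnd and 0.32 for Chrng. The 5 subunits of the muscle receptor, a synapse that cortex does not have, had a median of 0.43, and the 3 neuronal subunits 0.38. A further Chrng probe set gave -0.03, and further Chrne probe sets gave 0.59 and 0.16.

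The muscarinic receptors couple acetylcholine to G proteins. Chrm1, the main muscarinic receptor of cortical pyramidal cells, gave 654, 636, 936 and 1031 against 594, 1128, 882 and 728. The groups overlapped, with a difference of 0.02 (SE 0.22). The dim Chrm4, an inhibitory muscarinic receptor, had a difference of -0.50 (SE 0.36), the lowest of the 50 receptor genes.

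Serotonin receptors were the largest class, with 11 genes, of which 10 lay above 0, with a median of 0.25. Among the 7 kept, 6 lay above 0, with a median of 0.22. Htr3a, the serotonin-gated ion channel found on a class of cortical interneurons, gave 217, 218, 162 and 323 in non-deprived and 308, 246, 371 and 304 in deprived cortex. Non-deprived array 4 lay among the deprived values and the other non-deprived arrays below them all. The difference was 0.42 (SE 0.22), with an unadjusted p of 0.0791 in limma, the smallest of the kept receptors. With the replicate number as a random block that p was 0.0442, with an adjusted p of 0.69 in limma.

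Htr5a, a receptor coupled to inhibitory G proteins, gave 406, 323, 406 and 275 against 380.3, 459, 481 and 356. It was higher in 3 of 4 pairs, with a difference of 0.25 (SE 0.18) and overlapping groups. Htr1a, the inhibitory receptor of pyramidal cells and of serotonin neurons themselves, went from 122 ± 32.6 to 133 ± 38.5, a difference of 0.09 (SE 0.28) that was -0.01 under both quantile and loess normalization. The remaining kept genes had differences of 0.22 for Htr4, 0.22 for Htr7, 0.04 for Htr1d and -0.20 for Htr5b. Further Htr4 probe sets, both dim, gave 0.13 and -0.10. With the mean over probe sets, 6 of the 7 kept serotonin genes lay above 0, with a median of 0.09.

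Htr2b, a receptor that activates phospholipase C and is known mainly outside the brain, had the largest difference of the 50. Its signals were 9.5, 10.4, 38.3 and 27.4 in non-deprived and 51.0, 64.3, 56.0 and 54.5 in deprived cortex. The deprived arrays all lay above the others, with a difference of 1.04 (SE 0.30), an unadjusted p of 0.00433 and an adjusted p of 0.974 in limma run with no filter. Htr2c, a receptor of the same signalling type, gave 14.9, 4.0, 8.7 and 30.1 against 25.0, 5.1, 11.8 and 42.9, higher in 4 of 4 pairs but with a difference of 0.26 (SE 0.35). The dim Htr1b and Htr1f gave 0.62 and 0.53.

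All 3 dopamine receptor genes lay above 0, with a median of 0.29. Drd4, a receptor of cortical interneurons and pyramidal cells, gave 193, 343, 408 and 268 in non-deprived and 463, 467, 473 and 164 in deprived cortex. On deprived arrays 1, 2 and 3 it lay above every non-deprived value, and on deprived array 4 below them all. The difference was 0.29 (SE 0.33), and without deprived array 4 it was 0.65 (SE 0.23), with an unadjusted p of 0.0172 and an adjusted p of 0.784 in limma. Leaving out any other array gave Drd4 no unadjusted p under 0.05 in limma.

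Drd2, the main inhibitory dopamine receptor, went from 130 ± 36.1 to 160 ± 32.0, a difference of 0.29 (SE 0.24) with overlapping groups. Drd3, a related receptor known mainly from the ventral striatum, gave 36.6, 31.5, 35.6 and 31.9 against 43.4, 45.9, 40.8 and 60.1. These did not overlap, and the difference was 0.35 (SE 0.24). Drd1, the main dopamine receptor of cortex, was not analysed here, nor was Htr2a, the excitatory serotonin receptor of pyramidal cells.

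When the classes were set side by side, the 24 acetylcholine, serotonin and dopamine receptors had 22 genes above 0 and a median of 0.29. The 26 glutamate, GABA and glycine receptors had 15 above 0 and a median of 0.03. Over all 8251 genes 58.6% lay above 0, with a median of 0.05. This grouping was made after the values were seen and has no test.

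The first group holds many dim genes, and the kept genes alone, also an addition made after seeing the data, gave the same order. Of 12 kept acetylcholine, serotonin and dopamine receptors 11 lay above 0, with a median of 0.22, and of 20 kept glutamate, GABA and glycine receptors 9, with a median of -0.04. Over all 5675 kept genes, 53.9% lay above 0, with a median of 0.02. The 12 kept genes spanned mean signals of 127 to 824, a range in which the 3585 kept genes of the table lay above 0 in 57.6% of cases, with a median of 0.04. In that range 6 of 13 kept glutamate, GABA and glycine receptors did, with a median of -0.06.

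The size of the median for the first group was not the same in every pair of equal number. It was -0.02 in pair 1, 0.34 in pair 2, 0.31 in pair 3 and 0.36 in pair 4 over its 24 genes. For the 26 glutamate, GABA and glycine receptors it was -0.03, 0.11, 0.15 and -0.20. Pair 1 thus did not show the upward shift of the acetylcholine, serotonin and dopamine receptors.

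**Figure D3:**
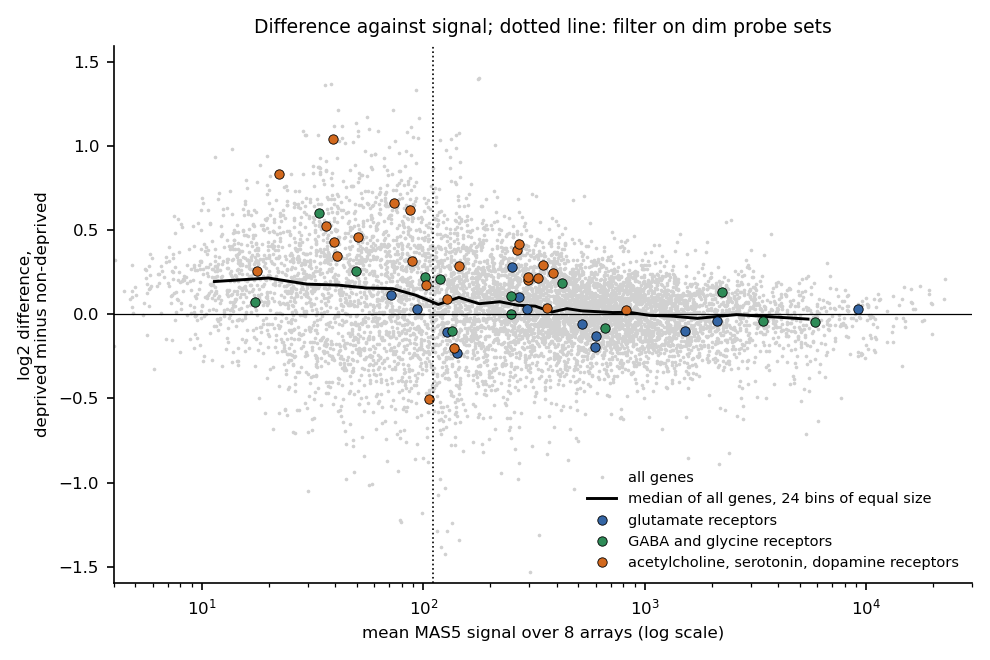
Difference of every gene (grey) against its mean MAS5 signal over the 8 arrays, on a log axis, with the receptors coloured by transmitter and the black line giving the median over 24 bins of equal size. The line lies above 0 at low signal, and the acetylcholine, serotonin and dopamine receptors lie mostly above it; the vertical axis leaves no receptor out.

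Low signals as a whole were higher on the deprived arrays. The 10th percentile of an array averaged 13.5 ± 0.718 on non-deprived and 17.2 ± 2.68 on deprived arrays, higher in 4 of 4 pairs, with an exact permutation p of 0.0286, the smallest possible. Genes left out as dim lay above 0 in 69.1% of 2576 cases, with a median of 0.17, and the dim receptors in 17 of 18, with a median of 0.33. Over the 19 dim genes of the set, Htra3 included, the median was 0.32; it was 0.21 with 15 above 0 under quantile normalization and 0.19 with 14 above 0 under loess, which put the dim genes of the table at 0.02 and 0.01. The part of this array-wide shift in the values of the dim receptors was not tested.

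**Figure D4:**
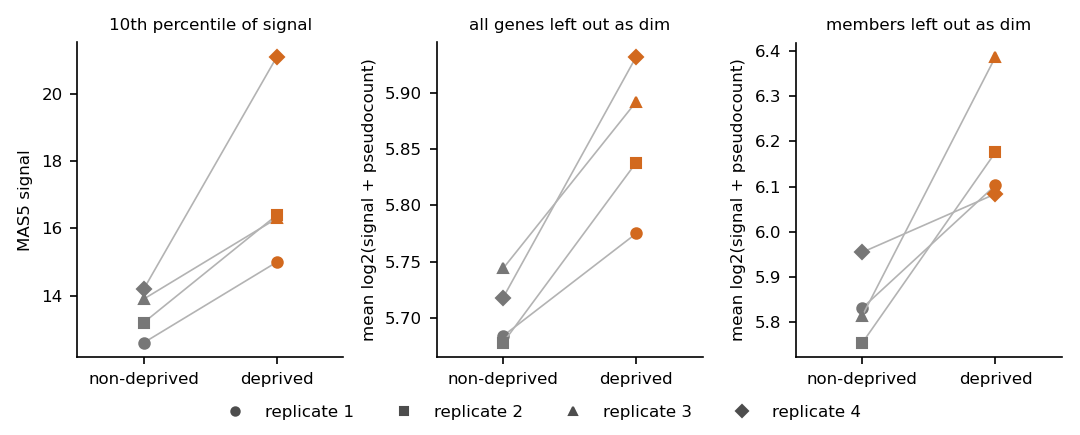
The 10th percentile of MAS5 signal, the mean log2(signal + pseudocount) over the 2576 genes left out as dim, and the same mean over the 19 dim genes of the set, on each array, with arrays of equal number joined. All 3 were higher on the deprived array in 4 of 4 pairs; the vertical axes do not start at 0.

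Control probe sets for RNA quality also differed in their group means, though the groups overlapped and the difference was not tested. The ratio of 3′ to 5′ signal was 1.39 ± 0.179 against 1.64 ± 0.239 for actin, higher in 3 of 4 pairs. For Gapdh it was 0.898 ± 0.0543 against 0.842 ± 0.0345, lower in 4 of 4 pairs. The actin and Gapdh ratios thus moved in opposite directions. With the actin ratio as a covariate, 9 of the 12 kept acetylcholine, serotonin and dopamine receptors lay above 0, with a median of 0.12; with the Gapdh ratio 6 did, with a median of 0.03. The glutamate, GABA and glycine receptors then had medians of -0.09 and -0.08 over their 20 kept genes. With the Gapdh ratio in the fit, the median of the first group was thus close to that of all kept genes. As the means of both ratios differed between the groups, such a covariate may also take up part of the group difference, which was not tested. Quantile and loess normalization gave 0.17 for the 12 genes, and leaving out 1 array at a time gave 0.08 to 0.28, the lowest without deprived array 3. Without non-deprived array 2 the median was 0.10.

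**Figure D5:**
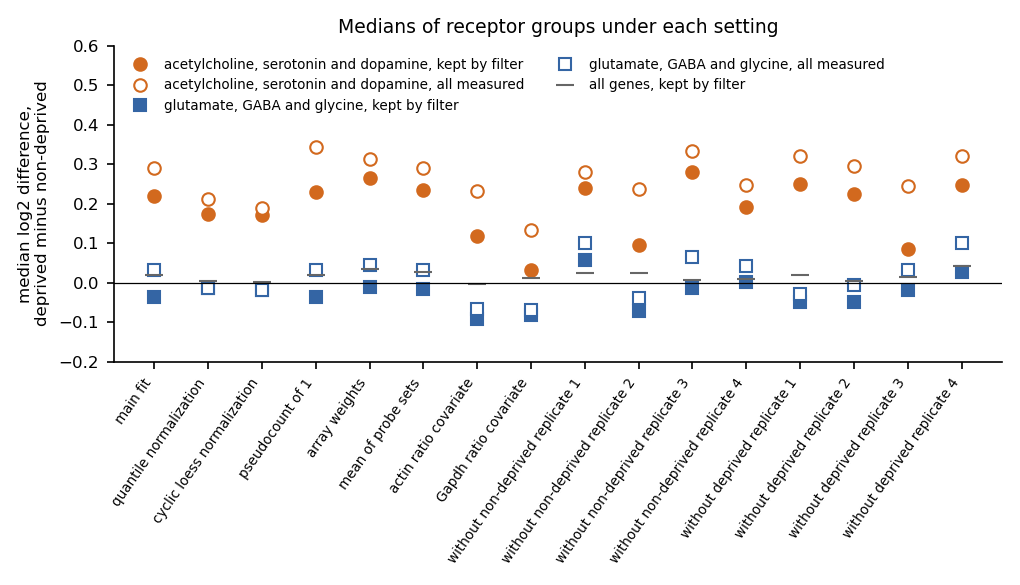
Median log2 difference, deprived minus non-deprived, of the acetylcholine, serotonin and dopamine receptors (circles) and of the glutamate, GABA and glycine receptors (squares) under each setting, for genes kept by the filter (filled) and all measured (open), with all kept genes of the table as bars. The filled circles lie highest at 0.28 without non-deprived replicate 3 and lowest at 0.03 with the Gapdh ratio as a covariate.

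The precision of the arrays bounds what could be seen. The 95% intervals of 11 receptor genes, Gabbr1, Grin2c, Grm8, Grid1, Gria2, Gria1, Gabrb1, Glrb, Grik5, Chrm1 and Htr1d, lay within a 1.5-fold difference either way. For the 21 other kept receptors a difference of 1.5-fold in at least one direction was not excluded at this precision. Chrna7 had the widest interval of the kept receptors, from 0.624-fold to 2.72-fold.

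Partners of the receptors were followed through a list of 40 auxiliary subunits and scaffolds, of which 16 were measured. Of these 4 lay above 0 and 12 below, with a median of -0.07, and 0 were called by limma. Cacng2, the auxiliary subunit stargazin that carries AMPA receptors to synapses, went from 905 ± 128 to 716 ± 31.9, a difference of -0.32 (SE 0.14). It was lower in 4 of 4 pairs, with an unadjusted p of 0.0432 and an adjusted p of 0.995 in limma. Gabarap, which links GABA-A receptors to microtubules, had a difference of -0.27 (SE 0.15). The scaffold Dlg4, also known as PSD-95, was at 0.00 (SE 0.27).

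Genes that make and clear the transmitters gave 0 calls in limma as well. Of 10 measured monoamine and acetylcholine handling genes 7 lay above 0, with a median of 0.21; of the 6 kept by the filter 4 did, with a median of 0.10. Ache, which breaks down acetylcholine, was at -0.28 (SE 0.19) and Ddc, which makes dopamine and serotonin from their precursors, at -0.04 (SE 0.28), both named after their values were seen. Slc6a4, the serotonin transporter, went from 120 ± 29.2 to 188 ± 58.7, a difference of 0.56 (SE 0.27), higher in 4 of 4 pairs, with an unadjusted p of 0.0588 in limma. Th, which makes the precursor of dopamine, had a difference of 0.56 (SE 0.30). Among 6 glutamate handling genes, Glul, the astrocytic glutamine synthetase, had 0.56 with an SE of 0.55, and the neuronal glutamate transporter Slc1a1 had -0.10. Among 6 GABA and glycine handling genes, the GABA transporter Slc6a13 had 0.23 and the vesicular transporter Slc32a1 had -0.06.

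Markers of the dissected tissue and its neighbours were read from the same fit. All 7 measured pan-neuronal and all 4 cortical excitatory neuron markers were kept, while the 4 choroid plexus markers were dim. The excitatory neuron markers lay below 0 in 3 of 4, with a median of -0.15. Their mean was higher on the deprived array in 1 of 4 pairs. Pan-neuronal markers lay below 0 in 6 of 7, with a median of -0.07, and their mean log2 level spanned 11.87 to 12.13 in non-deprived and 11.77 to 12.07 in deprived cortex. Interneuron markers lay below 0 in 6 of 9, with a median of -0.06, and spanned 10.07 to 10.31 against 9.92 to 10.23. Named after their values were seen, the peptide genes Sst, Npy and Cort were at -0.49, -0.60 and -0.55 and Lhx6, a transcription factor of interneurons, at 0.28, with an adjusted p of 0.995 each in limma. These were the largest differences of the list. The other interneuron markers were Gad1 at 0.02, Pvalb at 0.03, Gad2 at -0.04, Slc32a1 at -0.06 and Vip at -0.16. The pan-neuronal and the interneuron mean were each lower on the deprived array in 4 of 4 pairs. The part of these markers in receptor values was not tested. Striatal markers lay below 0 in 3 of 3 cases, with Penk at -0.43, Pdyn at -0.03 and the dim Rgs9 at -0.15. The striatal mean was higher on the deprived array in 2 of 4 pairs. Hippocampal markers lay above 0 in 4 of 5, with a median of 0.11, and 3 of the 5 were dim. Their mean was higher on the deprived array in 3 of 4 pairs. The kept hippocampal marker Wfs1 was at -0.28 (SE 0.14), with all 4 deprived arrays below the non-deprived ones. Thalamic markers lay above 0 in 5 of 6, with a median of 0.18, and their mean log2 level spanned 8.71 to 8.87 in non-deprived and 8.76 to 9.12 in deprived cortex. Endothelial and meningeal markers lay above 0 in 7 of 8, with a median of 0.13, and spanned 8.27 to 8.38 against 8.31 to 8.63. The thalamic and the endothelial mean were each higher on the deprived array in 4 of 4 pairs, and their part in the values of the acetylcholine, serotonin and dopamine receptors was not tested.

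The activity-dependent genes Fos, Egr1 and Junb had larger differences than any kept receptor, and no further activity-dependent genes were set beside them. Fos went from 2818 ± 665 to 1495 ± 165, a difference of -0.89, and Egr1 and Junb had differences of -0.71 and -0.68; their adjusted p was 0.995 in limma. With the replicate block their adjusted p was 0.116, 0.152 and 0.116. Because Egr1 and the AP-1 pair Fos and Junb bind DNA at known motifs, the promoters of the set were searched for them. RefSeq promoters of GRCm38.p6 were at hand for 38 of the 53 genes, through 45 promoters, and the 250 bases before each start were read on both strands.

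The Egr motif (GCGTGGGCG or GCGGGGGCG) was in 2 of the 45 promoters, those of Chrna7 and Htr7, and in 3.06% of all 32851 promoters. The AP-1 motif (TGACTCA, which reads TGAGTCA on the other strand) was in 1 of the 45, that of Chrna1, and in 4.46% of all. The motif TGACGTCA, bound by CREB, was in 0 of the 45, and in 1.55% of all. The 3 matches are shown with 30 bases either side, since they were the only ones in the set; they lie at chr7:63212569-63212637, chr19:36057417-36057485 and chr2:73580513-73580579, each on the minus strand, with the motif in capitals.
Chrna7: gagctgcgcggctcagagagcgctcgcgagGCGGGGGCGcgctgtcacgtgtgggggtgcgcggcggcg
Htr7: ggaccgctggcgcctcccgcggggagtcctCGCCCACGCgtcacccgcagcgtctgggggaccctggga
Chrna1: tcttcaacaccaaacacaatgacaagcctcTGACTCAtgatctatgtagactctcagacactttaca

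The motif begins 81 bases before the start in Chrna7, 95 in Htr7 and 211 in Chrna1, all 3 upstream of the gene. A match of letters is a description and not a site, and the counts were not tested against the shares over all promoters. Beside Fos, Egr1 and Junb, Chrna7 was at 0.38, though at -0.08 without non-deprived array 2 and at -0.57 with the Gapdh ratio as a covariate. Htr7 was at 0.22, and neither gene passed the test. Chrna1, at 0.43, was too dim to be tested.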

How the data were processed

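The authors deposited 1 intensity for each probe set and array on a linear scale; per the submitters' processing notes these came from MAS5, a method that merges match and mismatch probes into 1 signal. Its version was not stated in the sources at hand. Of 12488 probe sets, 66 controls were removed, and 10833 carried 1 symbol, 396 several and 1193 none; 10817 symbols were updated through Entrez identifiers to GRCm38.p6. Arrays were set to 1 trimmed mean, log2(signal + 15.3) was taken, and probe sets above the 40th percentile of mean log2 value were kept (7453). The test was limma's (version 3.58.1, R 4.3.3; eBayes with an intensity trend, two-sided, Benjamini-Hochberg over all kept probe sets). Depth does not apply to arrays; their number, 4 per group, limits the precision, and array medians ran from 182.9 to 208.9 with log2 correlations of 0.948 to 0.975 between arrays.

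The members and lists were chosen with earlier results of these data known. The text names members that pass, members whose groups do not overlap, the 2 kept genes of each class with the smallest p, and a list of well-known receptors, of which 12 were not analysed here; other members are given so that all 50 are accounted for. A further planned subunit balance is not reported here. Whether equal replicate numbers pair the arrays was checked: deviations from group means correlated at 0.158 to 0.422 within a number and at -0.272 to 0.123 across numbers. Pairs of equal number were therefore used in the pair counts, the sign-flip tests and the replicate blocks. The main limma fit, with its SE, intervals and p, and the exact permutation tests did not use the pairs. The limma script was tested on simulated data. Alternatives were quantile and loess normalization, a pseudocount of 1, no filter or one at the 60th percentile, fixed and random replicate blocks, array weights, means over probe sets, control ratios as covariates, and leaving out each array.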

Additional observations from a re-analysis of the deposited data

Results flagged for a closer look

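In 5 of 64 groups of 4 arrays examined, 1 array stood apart from the rest by Dixon's ratio of its gap to the range, where chance gives about 1 in 20, or 3.2. Drd4 on deprived array 4 stood lowest, with a ratio of 0.979. Glra1 on the same array was also lowest, at 0.834, and Htr1a on deprived array 1 was lowest, at 0.849. Non-deprived array 2 was lowest for Chrnb2, at 0.874, and for Gabrb2, at 0.868.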

How the results depend on the processing

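No receptor, partner or handling gene was called by limma under any setting run. A replicate block, fixed or random, changed no call (0 receptors called, 524 probe sets with an unadjusted p under 0.05 in the fixed block). Each number holds 1 array of each group, so a block leaves the differences as they were and could turn no direction. Values below are log2 differences whose sign turned among the 40 receptor, partner and handling genes followed under each setting; the cause was not tested. Members outside these turned too: with the actin ratio the kept GABA-A genes above 0 went from 4 to 2 of 6 and the kept serotonin genes from 6 to 5 of 7, and under loess the latter went to 4. With the actin ratio as a covariate they were -0.012 for Chrm1, 0.040 for Gabbr1, -0.066 for Gabrd, -0.42 for Glra1, -0.15 for Gria4, -0.22 for Grin2b, -0.11 for Grm8, -0.22 for Glul and 0.069 for Slc1a1. With the Gapdh ratio they were -0.26 for Chrm1, -0.57 for Chrna7, -0.048 for Chrne, -0.078 for Gabrb2, -0.48 for Glra1, -0.21 for Gria4, -0.17 for Grin2b, -0.13 for Grm8, -0.015 for Htr1a and 0.23 for Slc32a1, and the class medians moved to -0.22 for AMPA and -0.0075 for GABA-A. Quantile normalization gave -0.051 for Glra1, -0.041 for Gria4, 0.0041 for Grik5, -0.011 for Grin2b and -0.0055 for Htr1a. Loess gave -0.063 for Glra1, -0.025 for Gria4, -0.022 for Grin2b and -0.014 for Htr1a. A pseudocount of 1 gave -0.0060 for Glra1. Array weights gave -0.0080 for Chrm1, 0.034 for Glrb and 0.0094 for Slc32a1. The mean over probe sets gave 0.084 for Grik5 and 0.036 for Slc1a1.

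Leaving out 1 array at a time gave ranges across 0 for Chrm1 (-0.13 to 0.17), Chrna7 (-0.083 to 0.74), Chrne (-0.046 to 0.54), Gabra2 (-0.29 to 0.14), Gabra3 (-0.38 to 0.086), Gabrb1 (-0.0047 to 0.21), Gabrb2 (-0.16 to 0.35), Glra1 (-0.17 to 0.36), Glrb (-0.17 to 0.13), Gria2 (-0.024 to 0.090), Gria4 (-0.096 to 0.35), Grik5 (-0.078 to 0.0043), Grin2b (-0.19 to 0.23), Grin2c (-0.13 to 0.048), Grm8 (-0.0072 to 0.23), Htr1a (-0.0087 to 0.31), Htr2c (-0.0046 to 0.50), Slc1a1 (-0.20 to 0.074), Slc32a1 (-0.35 to 0.24) and the Grin2a minus Grin2b balance (-0.50 to 0.017). The subunit balances were not run with covariates, filters, array weights or the random block. The 18 dim receptors lie close to background, and their differences are limited by it.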
